A study of Mus musculus with 16 samples.

Results

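The genes described here are 9 genes that lymphocytes are known for, Il7r, Cd79a, Cd79b, Tnfrsf17, Cd3d, Cd3e, Cd8a, Lck and Cd247, read in the cerebral cortex of mice. They were selected on earlier results of these arrays, namely the irradiation differences of their log2 levels and, in the case of Cd247, the genotype difference of 1 probe. All 15 array probes whose RefSeq accession belongs to one of these genes were followed. Of these, 9 probes of 7 genes were marked by the image extraction software as well above background on 4 or more of the 16 arrays. Those 7 genes were among the 17436 genes tested, while Cd79a and Cd8a had no probe that passed.

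Each of the 16 arrays held cortex RNA from 1 male mouse, with 4 mice in each of 4 groups. Wild-type littermates and Neil1-/- mice, backcrossed to C57BL/6 and labelled 28 to 42 weeks old, were irradiated over the whole body with 6 Gy of gamma rays (0.74 Gy/min) or sham-exposed, and the cortex was taken after 20 h. The protocol also has BrdU, a nucleoside that replicating cells build into new DNA, injected at 100 mg/kg ahead of the exposure and 2 h afterwards, and it names no group without BrdU. The enzyme NEIL1 cuts oxidised bases out of DNA, and the series title names neuroinflammation after stress among its subjects. The Neil1 probe was brighter, not dimmer, in the mice labelled knockout, at -2.60 to -2.15 against -4.32 to -3.30 (each level here is a log2 signal with the 75th percentile of its array set to 0), so it does not bear out the labels, and these groups are called labelled knockout throughout. The sources used here do not place the probe relative to the deleted part.

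All wild-type arrays lay on 1 slide and all labelled knockout arrays on another, so that genotype and slide cannot be told apart, whereas sham and irradiated arrays were compared within a slide. The 75th percentile of processed intensity was 2078 to 2725 and 1976 to 2510 in sham and irradiated wild type, and 1513 to 2240 and 1075 to 1766 in sham and irradiated labelled knockout. Between 62.4% and 72.4% of spots were well above background. All 12 neuronal marker genes looked up, among them Snap25 of the synaptic vesicle machinery, were well above background on all 16 arrays. In bulk tissue, fewer cells of a type and less RNA per cell cannot be told apart.

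Lymphocytes sense their surroundings through multi-chain receptors. On T cells the CD3 chains and the zeta chain encoded by Cd247 carry the signal of the T cell receptor, CD8 helps it bind MHC class I, and the kinase LCK phosphorylates the chains. On B cells CD79A and CD79B carry the signal of the surface antibody. BCMA, the product of Tnfrsf17, binds the survival factors BAFF and APRIL on plasma cells, and the interleukin 7 receptor alpha chain, encoded by Il7r, serves the survival of T cells and of developing lymphocytes. The healthy brain holds few lymphocytes outside its blood and its borders.

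Promoters are shown for the genes on which the results turn, as 300 bases from 250 before to 50 after the start of the gene, 5′ to 3′ on the gene's strand (RefSeq sequence, build GRCm38.p6). Of the 9 genes, 8 had an entry. Cd79b, which was also lower after irradiation, had none, so its promoter was not searched. Those of Il7r (chr15:9529827-9530126, minus strand) and Tnfrsf17 (chr16:11313559-11313858, plus strand) are shown because both genes were lower after irradiation, and that of Cd247 (chr1:165788431-165788730, plus strand) because its probe stood apart from the rest of the set. Capitals mark 2 motifs searched on both strands, an ETS-type motif (ACTTCCTG or CAGGAAGT) and an E-box (CAGGTG or CACCTG).
Il7r: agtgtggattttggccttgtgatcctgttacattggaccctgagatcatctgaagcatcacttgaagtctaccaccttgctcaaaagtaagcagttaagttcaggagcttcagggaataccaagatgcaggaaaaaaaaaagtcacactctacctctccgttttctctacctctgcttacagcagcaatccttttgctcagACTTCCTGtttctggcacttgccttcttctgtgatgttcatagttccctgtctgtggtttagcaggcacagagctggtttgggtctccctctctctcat
Tnfrsf17: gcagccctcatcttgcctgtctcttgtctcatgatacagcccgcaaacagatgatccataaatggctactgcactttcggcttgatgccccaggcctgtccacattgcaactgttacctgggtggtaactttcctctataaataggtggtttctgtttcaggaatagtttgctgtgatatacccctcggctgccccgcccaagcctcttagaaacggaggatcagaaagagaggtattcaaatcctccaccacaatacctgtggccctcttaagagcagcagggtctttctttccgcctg
Cd247: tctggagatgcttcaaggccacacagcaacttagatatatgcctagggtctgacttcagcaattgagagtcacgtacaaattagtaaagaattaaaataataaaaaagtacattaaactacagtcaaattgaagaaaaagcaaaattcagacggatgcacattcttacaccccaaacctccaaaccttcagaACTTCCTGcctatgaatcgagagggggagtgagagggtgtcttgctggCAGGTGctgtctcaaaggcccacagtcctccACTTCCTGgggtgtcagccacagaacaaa
The ETS-type motif lay at -49 in Il7r, counted from the start, and at -58 and 22 in Cd247, and these letters were not in the window of Tnfrsf17. It was also found in the promoters of Cd79a, Cd3e and Lck, and in 3.33% of the 32851 promoters of the same length. The E-box was found in Cd247, Lck, Cd79a, Cd3d and Cd3e, and in 20.2% of all promoters. A further motif, the octamer ATGCAAAT or ATTTGCAT, was found in the promoters of 0 of the 8 genes and in 1.74% of all. The motifs were chosen after the promoters had been seen, and a match of letters is a description, not a binding site.

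Irradiated cortex was compared with sham cortex to see how the lymphocyte genes stood within a day of exposure. Il7r, Cd79b and Tnfrsf17 were lower in irradiated than in sham cortex of both genotypes, with averaged differences of -0.98, -0.74 and -0.86 on the log2 scale. Cd3d, Cd3e, Lck and Cd247 gave averaged differences from -0.06 to 0.35 and groups that overlapped. The genes were picked partly for these values, which are therefore given as a description without a test.

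Il7r, the interleukin 7 receptor gene, had 1 probe, A_55_P2736590, well above background on all 16 arrays. Replicates 1 to 4 read -4.79, -4.62, -4.80 and -4.61 in wild-type sham, against -6.11, -5.86, -5.41 and -5.42 in irradiated wild type. In labelled knockout it read -4.80, -4.26, -4.78 and -4.90 in sham and -5.79, -5.26, -5.71 and -5.79 in irradiated cortex. Every irradiated array lay below every sham array of its genotype, and replicate 2 was the highest of the irradiated labelled knockout arrays. The mean difference was -0.997 ± 0.18 (SE, n = 4 against 4) on the log2 scale in wild type and -0.96 ± 0.18 in labelled knockout. Averaged over the genotypes it was -0.98 ± 0.13, a level 1.97-fold lower, which placed Il7r at rank 20 from the lowest of 17436 genes.

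Cd79b, the gene of a signalling chain of the B cell receptor, also had 1 probe, A_51_P342652, well above background on every array. It gave -4.19, -4.39, -4.76 and -4.59 in wild-type sham against -4.93, -5.08, -5.28 and -5.45 in irradiated wild type. The labelled knockout gave -4.48, -4.72, -4.64 and -4.50 in sham against -5.52, -5.42, -5.04 and -5.46 after irradiation. Sham and irradiated arrays did not overlap in either genotype. The differences were -0.70 ± 0.15 in wild type and -0.77 ± 0.15 in labelled knockout, and -0.74 ± 0.11 on average, 1.67-fold lower. Its partner chain gene Cd79a gave no comparison, because its single probe, A_66_P120987, was well above background on 0 of 16 arrays.

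Tnfrsf17, the BCMA gene, was read by A_51_P270807, well above background on 14 of 16 arrays. Its levels were -4.88, -4.87, -4.79 and -4.80 in wild-type sham, against -5.97, -5.55, -5.38 and -5.10 in irradiated wild type. In labelled knockout they were -5.56, -5.10, -5.08 and -5.32 without and -6.19, -6.49, -6.68 and -5.88 with irradiation, where in the latter replicates 2 and 3 were not well above background. The irradiated arrays again lay below all sham arrays of their genotype. The difference was -0.67 ± 0.19 in wild type and -1.05 ± 0.19 in labelled knockout, and -0.86 ± 0.13 on average, 1.81-fold lower.

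**Figure D1:**
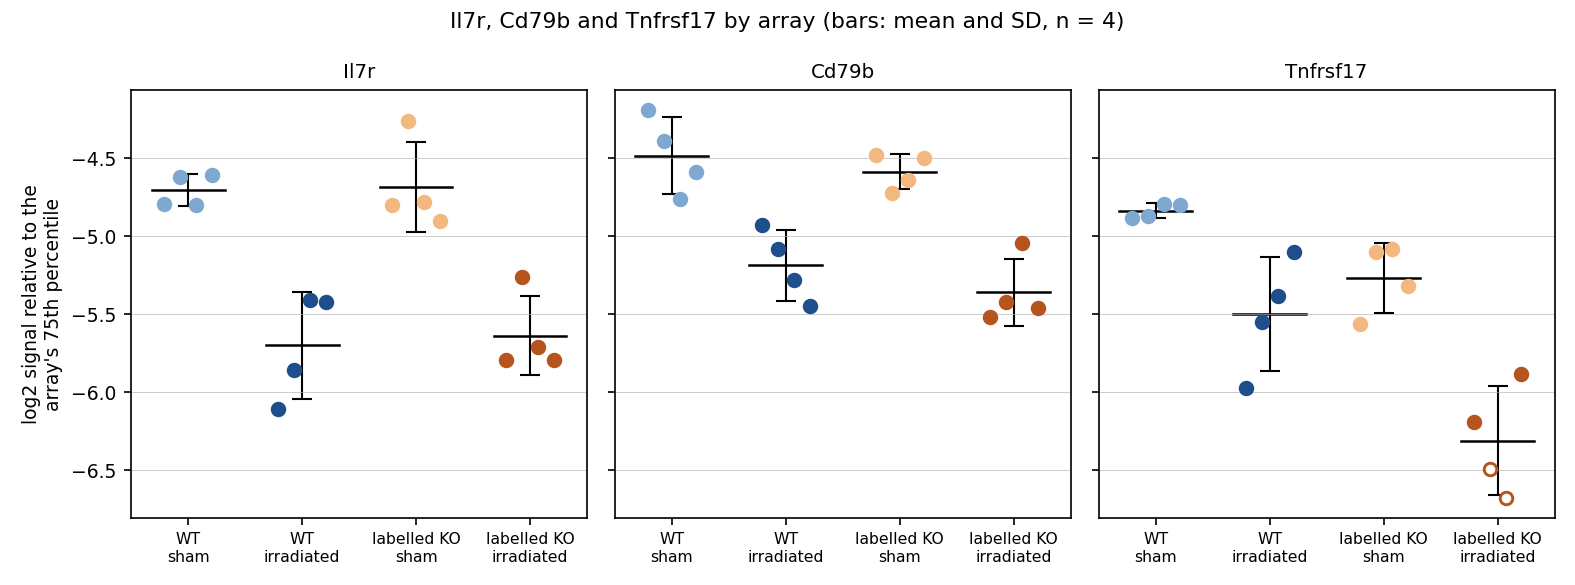
Log2 signal of Il7r, Cd79b and Tnfrsf17 relative to each array's 75th percentile (vertical axis) in the 4 groups, 1 point per array, with the mean and SD (n = 4) as lines; open circles mark arrays not well above background. In each panel all 4 irradiated arrays of a genotype sit below its 4 sham arrays.

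The same 3 genes were the members called in the fit over all genes (limma, Benjamini-Hochberg adjusted p under 0.05). That fit called 53 of 17436 genes, 0.304%, in the averaged contrast, and 24 of them, 0.138% of the genes tested, were called lower. Irradiated arrays lay below all sham arrays in both genotypes for 23 genes, 0.132% of those tested, and for 1.1% in wild type alone and 1.03% in labelled knockout alone. Within 1 genotype, 13 genes (0.0746%) were called in wild type and 21 (0.12%) in labelled knockout, and 0 members were among either. Nothing is read from these counts about the members, since their choice used the same contrasts.

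The signals behind the 3 genes were low. The processed intensity of Il7r ran from 85 to 99 (sham) and 36 to 54 (irradiated) in wild type, and from 51 to 96 (sham) and 19 to 33 (irradiated) in labelled knockout. Tnfrsf17 ran from 75 to 93, 40 to 58, 38 to 53 and 12 to 24 in the same order, and Cd79b from 86 to 150, 45 to 83, 61 to 100 and 24 to 38. With normexp background correction, which adds an offset of 50 to the corrected intensities, the averaged differences were -0.28 for Il7r, -0.18 for Cd79b and -0.14 for Tnfrsf17, and that of Tnfrsf17 in labelled knockout was 0.04. None of the 3 was then called. With quantile normalization, or with the array median in place of the 75th percentile, Il7r was called and Cd79b and Tnfrsf17 were not, although their averaged differences stayed between -0.86 and -0.71.

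Between the genotypes, neither Il7r nor Cd79b was called in sham or irradiated cortex with the 75th percentile scaling. Labelled knockout minus wild type was 0.02 ± 0.18 for Il7r in sham cortex (limma, adjusted p = 0.993) and 0.06 ± 0.18 after irradiation (adjusted p = 0.900). For Cd79b it was -0.10 ± 0.15 in sham (limma, adjusted p = 0.938) and -0.18 ± 0.15 after irradiation (adjusted p = 0.608). With normexp correction both were called after irradiation by limma, Il7r at 0.55 (adjusted p = 0.0111) and Cd79b, whose sign turned, at 0.40 (adjusted p = 0.0279). Normexp correction called 3369 genes in this contrast, against 205 in the main analysis, so nothing particular to the 2 genes is read from these calls. Over the 31 alternatives the adjusted p ran from 0.0111 to 0.989 for Il7r and from 0.0279 to 0.842 for Cd79b, and no other alternative called either. Tnfrsf17 gave -0.43 ± 0.19 in sham (limma, adjusted p = 0.614) and -0.81 ± 0.19 after irradiation (adjusted p = 0.0552), so that neither difference was called. In irradiated cortex its 2 genotypes overlapped by 1 array each, wild-type replicate 1 at -5.97 and labelled knockout replicate 4 at -5.88. The difference after irradiation was called in 7 of 30 alternative analyses, whose adjusted p ran from 0.0144 to 0.193, and with normexp correction its sign turned, to 0.40. Those 7 alternatives called 255 to 1798 genes in this contrast, against 205 in the main analysis. Nothing particular to Tnfrsf17 is therefore read from these calls.

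Whether the response differed between the genotypes was read from the interaction, the labelled knockout difference minus the wild-type difference. It was 0.04 for Il7r (95% confidence interval -0.51 to 0.59), -0.07 for Cd79b (-0.52 to 0.38) and -0.38 for Tnfrsf17 (-0.95 to 0.19), each with a limma adjusted p of 0.9999 or more. The genes were picked partly on the differences that the interaction compares. Its values for them are therefore a description, and no equal response is read from them. The intervals leave room for a difference of about the size of the response itself in Tnfrsf17. Over all genes limma called 0 interactions, 0%, and 222 genes had an unadjusted p under 0.05.

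The 3 genes did not all vary together within groups. Over the 16 arrays, after the group means were taken out, r was -0.47 between Il7r and Cd79b, -0.74 between Cd79b and Tnfrsf17 and 0.37 between Il7r and Tnfrsf17. These are descriptions over arrays that share slides and scaling.

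Among the T cell receptor genes, Cd3e and Lck were well above background on every array and Cd3d on 12 of 16, and none separated sham from irradiated cortex. Cd3d, a chain of the CD3 complex, was read by A_66_P109615 at -6.13, -5.87, -6.38 and -6.02 in wild-type sham, against -6.18, -6.55, -6.57 and -6.71 in irradiated wild type. In labelled knockout it read -6.62, -6.99, -5.90 and -6.90 in sham and -6.14, -7.50, -5.87 and -5.79 after irradiation, with 4, 3, 2 and 3 arrays of the 4 groups well above background. The groups overlapped, and the difference was -0.40 ± 0.33 in wild type and 0.28 ± 0.33 in labelled knockout. A second Cd3d probe, A_51_P285206, was well above background on 1 of 16 arrays, replicate 4 of labelled knockout sham at -3.95, and read -9.24 to -7.43 on all others.

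Cd3e, another CD3 chain, was represented by A_55_P2156229. Its levels were -2.36, -2.63, -3.10 and -2.77 in wild-type sham, -2.11, -2.82, -2.70 and -2.11 in irradiated wild type, and, in labelled knockout, -2.50, -2.60, -1.77 and -2.66 in sham and -2.21, -1.91, -2.12 and -2.35 after irradiation. Irradiated and sham arrays overlapped in both genotypes, at an averaged difference of 0.26 ± 0.16. The second probe, A_51_P455681, gave 0.17 ± 0.20, and the 2 probes correlated weakly over the 16 arrays, with r of 0.35. The second probe was dimmer and was well above background on 15 of 16 arrays. Its group means ran from -5.73 to -5.39, against -2.71 to -2.15 for A_55_P2156229.

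Lck, the kinase that starts signalling from the T cell receptor, was represented by A_55_P2155504. Its levels were -1.67, -1.43, -2.77 and -1.87 in wild-type sham, -1.65, -2.54, -1.68 and -1.41 in irradiated wild type, and, in labelled knockout, -2.42, -1.30, -1.69 and -2.26 in sham and -2.42, -1.88, -1.40 and -2.41 after irradiation. The averaged irradiation difference was 0.00 ± 0.24, and arrays within each group spread over more than 1 log2 unit. That spread was shared by its second probe, A_55_P2506985, with r of 0.82 between the probes over the 16 arrays. The second probe was far dimmer and was well above background on 14 of 16 arrays. Its group means ran from -6.55 to -6.13, against -2.03 to -1.82 for A_55_P2155504. Cd8a, the co-receptor chain of cytotoxic T cells, had 2 probes, A_52_P150547 and A_52_P443334, both well above background on 0 of 16 arrays.

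**Figure D2:**
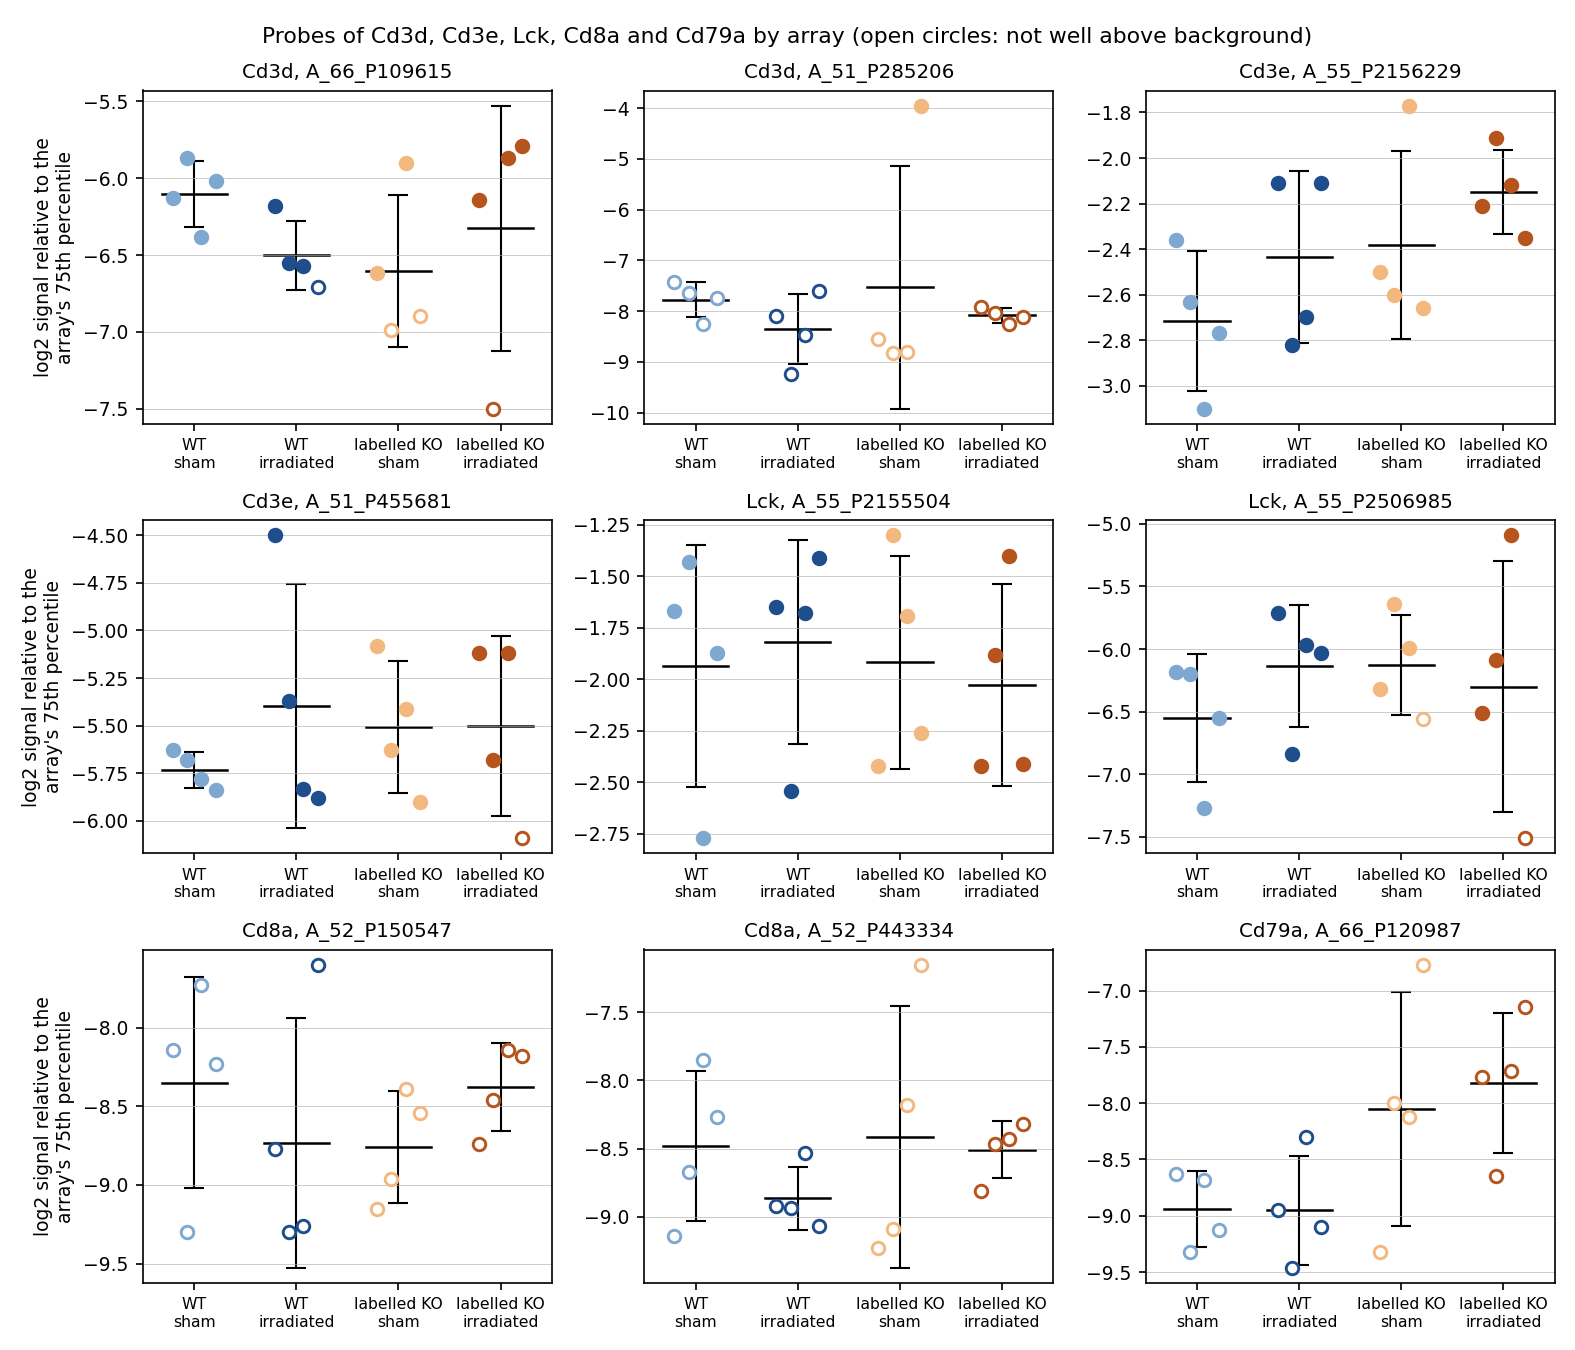
Log2 signal relative to each array's 75th percentile (vertical axis, scaled per panel) for every probe of Cd3d, Cd3e, Lck, Cd8a and Cd79a in the 4 groups, 1 point per array with mean and SD (n = 4); open circles mark arrays not well above background. Sham and irradiated arrays overlap in the panels of the probes that rose above background, and the Cd8a and Cd79a panels hold open circles only.

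Cd3d, Cd3e and Lck were not called between the genotypes either. By limma the difference in sham was -0.50 ± 0.33 for Cd3d (adjusted p = 0.781), 0.33 ± 0.22 for Cd3e (adjusted p = 0.792) and 0.02 ± 0.34 for Lck (adjusted p = 0.999). After irradiation it was 0.18 ± 0.33 (limma, adjusted p = 0.835), 0.29 ± 0.22 (adjusted p = 0.574) and -0.21 ± 0.34 (adjusted p = 0.814). Cd3d was called after irradiation in 1 of 30 alternatives, normexp correction (limma, adjusted p = 0.00423), which called 3369 genes in that contrast. Cd3e and Lck were called in 0 of 31. The background in the main analysis was 9 genes called in sham, 0.0516%, and 205 after irradiation, 1.18%. Cd3d and Cd3e lie on chromosome 9 within 20 Mb of Neil1, a window that held 380 tested genes, 9 of the 9 calls in sham and 21 of the 205 after irradiation.

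Cd247, the zeta chain gene, went its own way. Its probe A_55_P2487460, assigned to the transcript NM_001113391, was well above background on all 16 arrays and was far brighter in labelled knockout than in wild type. It read -2.09, -1.70, -2.83 and -1.19 in wild-type sham, -1.42, -1.80, -2.42 and -1.61 in irradiated wild type, and, in labelled knockout, -0.86, -0.18, 0.06 and 0.29 in sham and -0.04, 0.36, 0.50 and 0.73 after irradiation. No wild-type array reached the level of any labelled knockout array of the same treatment. The difference was 1.78 ± 0.33 in sham, 3.43-fold, and 2.20 ± 0.33 after irradiation, at rank 3 and rank 7 from the highest of 17436 genes. The probe was picked for this difference, so no test is given. Over all genes, 190, or 1.09%, were higher in labelled knockout without overlap in both treatments, and 143, 0.82%, were called higher after irradiation.

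The same contrast stood in the unscaled intensities, which ran from 353 to 938 in wild type and from 1231 to 1864 in labelled knockout, although the labelled knockout arrays were the dimmer ones in their 75th percentile. Irradiation moved the probe little by comparison, with averaged difference 0.35 ± 0.24. The other 2 Cd247 probes, A_52_P173555 for NM_031162 and A_55_P2212968 for NM_001113393, were well above background on 0 of 16 arrays. A_52_P173555 had means of -8.43 (sham) and -8.62 (irradiated) in wild type and of -7.25 and -7.11 in labelled knockout. Its irradiated arrays did not overlap between genotypes, at -8.88 to -8.25 against -7.58 to -6.58, and its sham arrays did. Thus 1 of 3 probes of the gene gave a signal above background, and the readings of the other 2, none above it, cannot show whether the gene differed.

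The bright Cd247 probe ran with the probe of Rn28s1, the 28S ribosomal RNA. Among 15517 genes well above background on all arrays, the 3 most like it over the 16 arrays were Fam166c (r of 0.98), Rn28s1 (0.97) and Fuz (0.96), and 69 genes had an r above 0.9. The arrays fall into 2 sets by slide and genotype, so the relation with Rn28s1 was also read within each. Pearson's r was 0.88 and Spearman's rho 0.76 over the 8 wild-type arrays, and 0.98 and 0.98 over the 8 labelled knockout arrays. Without the 2 arrays farthest from the median of Rn28s1, r was 0.54 in wild type and 0.91 in labelled knockout, so the wild-type relation rested largely on those arrays.

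Rn28s1 itself read 3.17 to 4.95 in wild-type sham, 4.16 to 4.93 in irradiated wild type, and, in labelled knockout, 4.95 to 6.49 in sham and 6.42 to 7.36 after irradiation. Its genotype difference was 1.67 ± 0.40 in sham and 2.39 ± 0.40 after irradiation, given without a test because Rn28s1 was named for its likeness to a probe chosen for its genotype difference. The part of ribosomal RNA, of the slide or of labelling in the Cd247 signal was not tested.

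**Figure D3:**
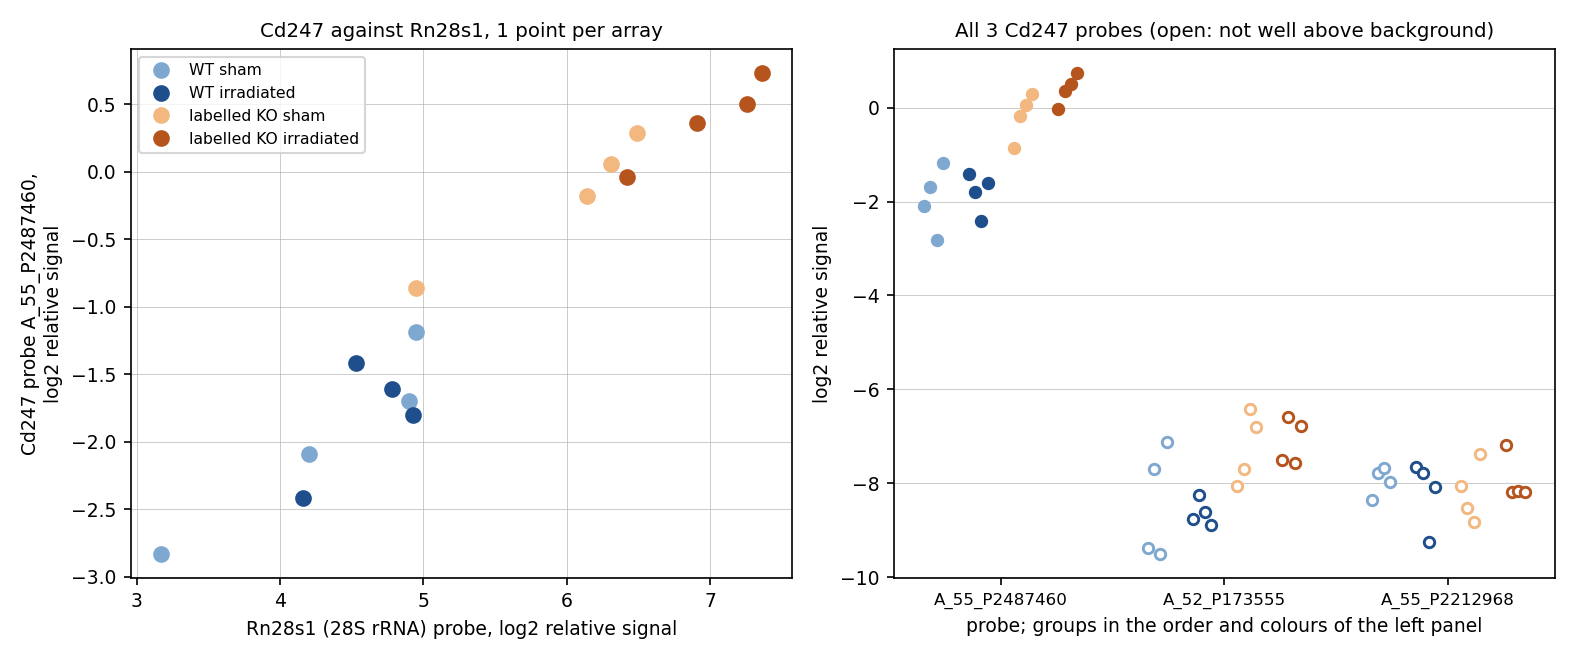
Left, log2 relative signal of the Cd247 probe A_55_P2487460 (vertical axis) against that of the Rn28s1 probe (horizontal axis), 1 point per array, coloured by group. Right, log2 relative signal of all 3 Cd247 probes by array in the same group order, with open circles not well above background; the labelled knockout arrays lie highest in the left panel, and the other 2 probes have open circles only.

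Genes beside Cd247 on chromosome 1 gave no such difference. The 5 nearest tested genes on each side, from Dcaf6 to Mael in the order of the RefSeq gene table, had genotype differences between -0.80 and 0.47 in either treatment, and 0 of the 10 were called by limma. The nearest, Creg1 and Pou2f1, gave 0.07 ± 0.10 and 0.05 ± 0.12 in sham and -0.02 ± 0.10 and 0.07 ± 0.12 after irradiation. Cd247 lies on another chromosome than Neil1.

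**Figure D4:**
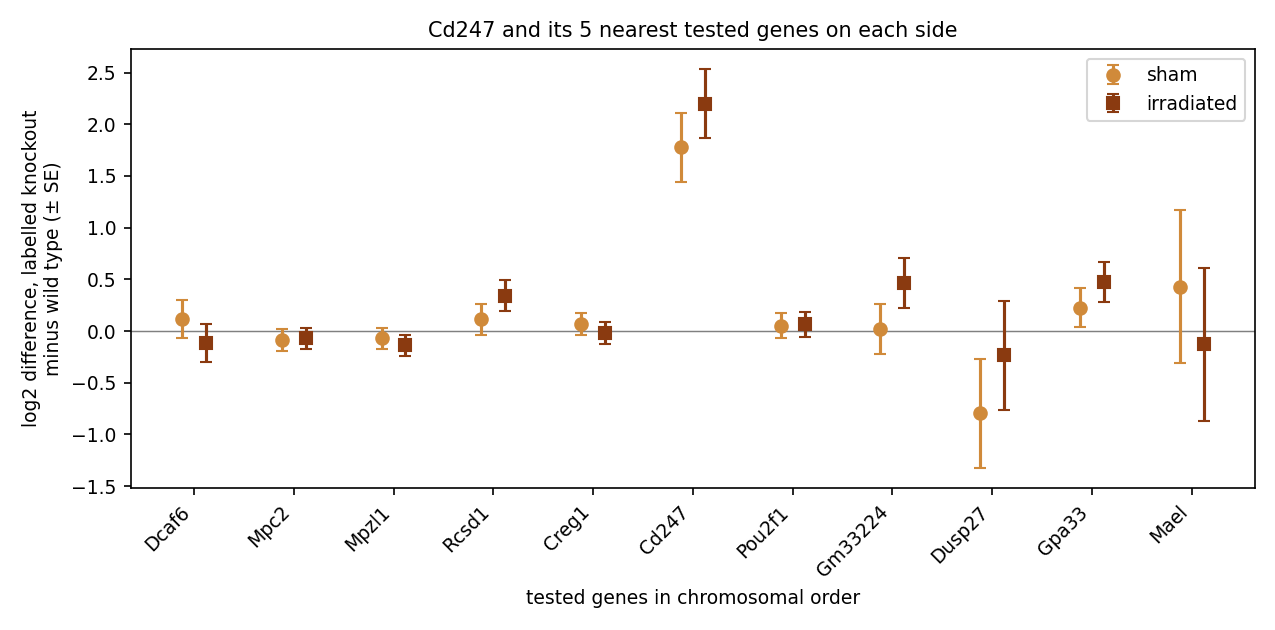
Log2 difference, labelled knockout minus wild type, ± SE (vertical axis) for Cd247 and the 5 nearest tested genes on each side in chromosomal order (horizontal axis), in sham (circles) and irradiated (squares) cortex. Cd247 stands at 1.78 and 2.20 and the 10 neighbours lie between -0.80 and 0.47.

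The wider lymphocyte lists were looked up to see whether the 3 lower genes had company. The 7 lists of T cell, B cell, plasma cell and cytotoxic cell genes held 86 genes, all with a probe, of which 63 were tested, 44 were well above background on all 16 arrays and 15 on none. The genes above background on no array included Cd3g, a CD3 chain, Foxp3, the regulator of regulatory T cells, Gzmb, a protease of killer cells, and Cxcr5, a homing receptor of follicular cells, besides Cd79a and Cd8a. Some defining genes of several lymphocyte types were thus at background in this tissue. Others, among them Cd4, Cd5, Zap70, Pax5 and Tbx21, were well above it on all 16 arrays.

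Of the 56 tested lymphocyte genes that are not members, limma called 0 in any of the 6 contrasts. In the averaged irradiation contrast 32 were below 0 and 24 above it, and 5 of the 56 had an unadjusted p under 0.05, beside 871 of all 17436 genes. The median difference of the 56 was -0.05 beside 0.00 for all genes, of which 48.3% were below 0. Their differences ran from -0.69 for Fcer2a, the IgE receptor of B cells (SE 0.35), to 0.57 for Sdc1, the plasma cell surface proteoglycan CD138 (SE 0.17), and the latter was chosen after its values were seen. Pax5, the B cell identity factor, gave 0.34 ± 0.14 (limma, adjusted p = 0.884), and Prf1, the perforin gene, 0.46 ± 0.20 (adjusted p = 0.943). By list, the genes above and below 0 numbered 5 and 1 among the T cell receptor and co-receptor genes (median 0.09), 4 and 5 in T cell signalling (-0.04), 2 and 7 in T cell identity (-0.25), and 5 and 2 among NK and cytotoxic genes (0.03). In the B lineage they numbered 3 and 6 in receptor and signalling (-0.02), 2 and 6 in B cell identity, the list of Pax5 (-0.14), and 3 and 5 in the plasma cell list, which holds Sdc1 (-0.09). The average over NK and cytotoxic genes joined 2 above and 5 below 0 in wild type with 7 and 0 in labelled knockout. That list was singled out after its values were seen.

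**Figure D5:**
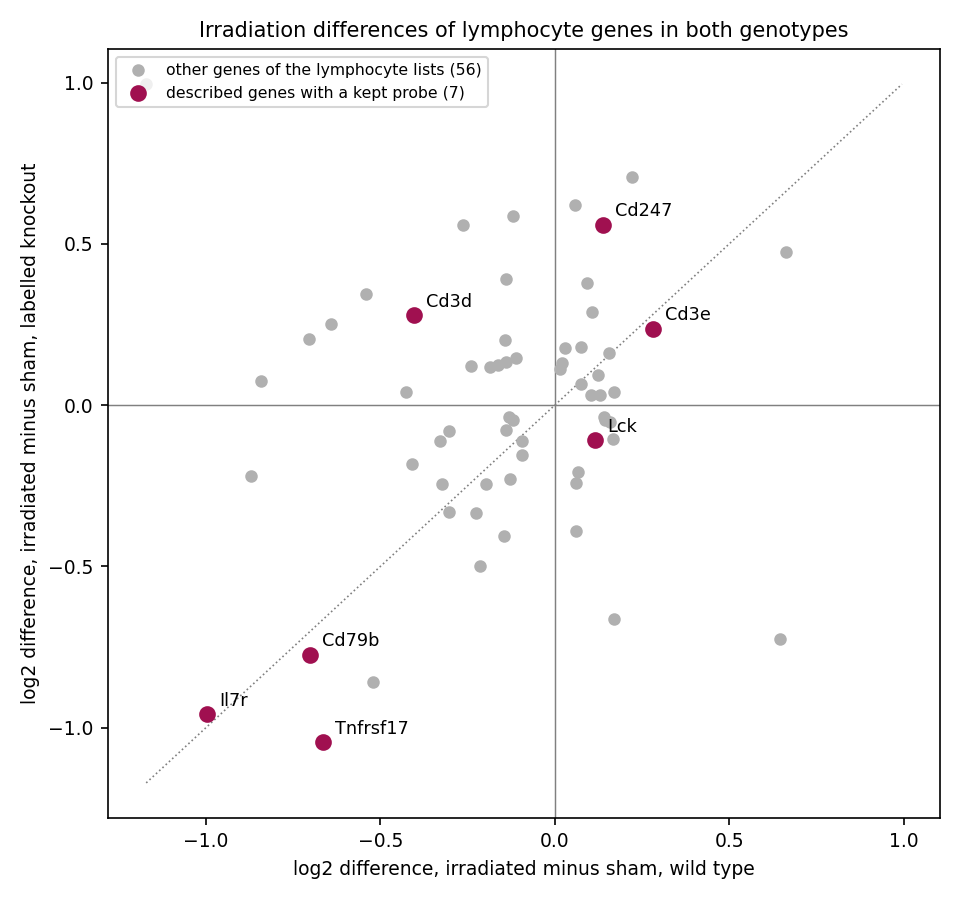
Log2 irradiation difference in wild type (horizontal axis) against that in labelled knockout (vertical axis) for 63 tested lymphocyte genes, 1 point per gene, with the dotted line at equal differences. Il7r, Cd79b and Tnfrsf17 lie at the lower left, at -0.997 and -0.96 for Il7r, while the other members and most of the 56 further genes lie around 0.

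Ligands and partners of the lower genes were followed as lists of their own. In the interleukin 7 axis, a list that includes the cytokine genes Il7 and Tslp, the kinases Jak1 and Jak3 and the survival gene Bcl2, 0 of 10 tested genes besides Il7r were called in the averaged irradiation contrast, 5 lay above 0 and 5 below it, and the median was 0.02. In the BAFF and APRIL axis, which holds both ligand genes Tnfsf13b and Tnfsf13, 0 of 7 tested genes besides Tnfrsf17 were called, 3 lay above 0 and 4 below, and the median was -0.00133. Neither list was called in any gene between the genotypes.

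Markers of other cell types moved with irradiation beside the 3 genes. In the microglia list 12 of 14 genes were below 0 in the averaged contrast, with a median of -0.23. Limma called 2 lower, P2ry12, the ADP receptor of resting microglia, at -0.69 ± 0.07 (adjusted p = 0.000219) and Ctss, the lysosomal protease cathepsin S, at -0.43 ± 0.08 (adjusted p = 0.0461). The mean level of the 14 genes ran from 1.19 to 1.39 in wild-type sham, 0.99 to 1.19 in irradiated wild type, and, in labelled knockout, 1.12 to 1.30 in sham and 0.91 to 1.01 after irradiation, and all 14 were well above background on every array. Over the 16 arrays this mean had an r of 0.85 with Il7r, 0.85 with Tnfrsf17 and 0.66 with Cd79b, and with group means taken out 0.72, 0.41 and -0.48. The part of microglia in the 3 genes was not tested.

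Blood was read through 3 further lists. In the platelet list limma called 1 of 9 genes lower, Gp9, a chain of the von Willebrand factor receptor, at -0.90 ± 0.13 (adjusted p = 0.00504), and 6 of 9 were below 0. The mean of the 9 genes ran from -4.16 to -3.86 in wild-type sham, -4.32 to -3.90 in irradiated wild type, and, in labelled knockout, -3.95 to -3.62 in sham and -4.16 to -3.85 after irradiation. Over the 16 arrays this mean had an r of 0.58 with Cd79b, 0.27 with Il7r and -0.06 with Tnfrsf17, and with group means taken out 0.68, -0.55 and -0.60. The red cell list held 0 called of 7, with array means from -1.59 to 1.63 in sham and -0.59 to 1.001 in irradiated cortex over both genotypes. The monocyte and neutrophil list held 0 called of 12 and 9 above 0, with array means from -4.71 to -2.06 in sham and -3.57 to -2.58 in irradiated cortex. The endothelial and meningeal list held 0 called of 11 and 8 below 0, with an r of 0.69 between its mean and Tnfrsf17 (0.67 with group means taken out). Limma called 0 of 10 genes in the border macrophage and dendritic list, whose mean had an r of 0.44 with Tnfrsf17 (0.78 with group means taken out). All 10 differences of labelled knockout minus wild type in sham cortex were below 0, as were 54.7% of all genes, with 0 called. After irradiation 4 of the 10 were above 0 and 6 below it. The array means of this list ran from -2.95 to -2.77 in wild-type sham, -3.40 to -2.72 in irradiated wild type, and, in labelled knockout, -3.44 to -3.03 in sham and -3.40 to -2.79 after irradiation. The neuronal list of 12 held 0 called. In it 11 of 12 differences of labelled knockout minus wild type were above 0 in each treatment, while 54.7% of all genes were below 0 in each. Neuronal array means ran from 3.55 to 3.74 in wild-type sham, 3.60 to 3.81 in irradiated wild type, and, in labelled knockout, 3.85 to 3.95 in sham and 3.87 to 3.97 after irradiation. The neuronal mean had an r of 0.80 with Cd247, and 0.095 with group means taken out. The part of any of these cells in the lymphocyte genes was not tested.

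Beyond the lists, each member above background on all arrays was set against the other genes with the same property, over the 16 arrays. Most like Il7r were Aqp9, Prc1 and Slc2a5, with r of 0.87, 0.87 and 0.85. Most like Cd79b were Gp9, Unc93b1 and Ddah1, with r of 0.94, 0.91 and 0.85. Cd3e was most like Cacng8, Prr7 and Sf3b3, with r of 0.92, 0.88 and 0.86, and Lck was most like Ntf3, Scn3b and Efcab1, with r of 0.98, 0.98 and 0.97. For Lck 107 genes had an r above 0.9, for Cd79b 2, for Cd3e 1 and for Il7r 0. These likenesses are descriptions over arrays that share slides, scaling and, for Il7r and Cd79b, the difference between sham and irradiated cortex.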

How the data were processed

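One 1-colour Agilent array was run per mouse for 16 mice. Per the file headers, Agilent Feature Extraction 12.0.3.1 turned each 1-channel scan (3 micron) into spot intensities, and the deposited processed intensity used here is background-subtracted but carries no scaling between arrays. A deposited score table of 42859 features served as an alternative only: the sources used here do not say how its score was computed, its columns had a median of -0.08, and each followed the log signal of its array with r of 0.9996 or more, so that scale and direction could be read but not the rule for leaving out features.

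A level is the log2 processed intensity less that of the array's 75th percentile, with spots of a probe averaged. Probes well above background on 4 arrays or more were kept (39589 of 56605). A GRCm38.p6 gene table named 32994 of 35886 probes with a RefSeq accession; the array header names an older build, so the table's coordinates were not used for probes. The brightest kept probe stood for a gene. A group-means model over the 16 arrays (12 residual degrees of freedom) was fitted to 17436 genes with limma 3.58.1 in R 4.3.3 with statmod 1.5.0. The 6 contrasts were irradiation in each genotype and averaged, genotype in each treatment, and the interaction. Tests were two-sided, Benjamini-Hochberg adjustment ran over all genes, and calls needed an adjusted p under 0.05. The number of arrays limits the precision. The code was checked on simulated data.

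Members and gene lists were chosen with earlier results of these data known. The text names every probe of the members and each gene of the other lists called in the averaged irradiation contrast. It also names the 3 genes most like each member that was well above background on all arrays. Further genes of the lists are named as examples and are not a complete set. No mean signal was at hand, so the normexp alternative took the median signal and median background. Further alternatives covered scaling (quantile, median, z-score, scores), filters and probe rules, 2-group fits, variance models, array weights, a replicate block, a floor at the lowest signal well above background and leaving out arrays.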

Additional observations from a re-analysis of the deposited data

Results flagged for a closer look

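Of 60 sets of 4 arrays (15 probes in 4 groups), 3 held an array far from the other 3 by Dixon's criterion, which chance meets in about 1 in 20 sets. Il7r in irradiated labelled knockout had replicate 2 at -5.26, with the next array at -5.71. The Cd3d probe A_51_P285206 in labelled knockout sham had replicate 4 at -3.95, well above background, with the next array at -8.55 and not above it. The Cd247 probe A_55_P2212968 in irradiated labelled knockout had replicate 1 at -7.18, with the next at -8.17, and none of these 4 arrays was well above background. The averaged Il7r difference stayed between -1.04 and -0.91 when any 1 array was left out.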

How the results depend on the processing

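The numbers of the 7 tested members called, with those under alternatives, were as follows. The members were picked partly on their irradiation differences, and Cd247 on its genotype difference. Counts that rest on those values are a description, not a test. In the averaged irradiation contrast 3 were called, 0 with normexp correction and 1 each with quantile normalization, median scaling and the deposited scores, and 3 whichever array was left out. In wild type 0 were called and 2 with array weights, with 0 to 1 when arrays were left out (1 without labelled knockout sham replicate 2). In labelled knockout 0 were called, 2 with z-scores and 3 with array weights, with 0 to 2 when arrays were left out, 2 without irradiated wild-type replicate 1. Between genotypes in sham 0 were called and 1 with array weights. After irradiation 1 was called, Cd247, whose probe was picked for this difference. With normexp correction 4 were called (Cd247, Cd3d, Cd79b and Il7r), among 3369 genes called in all. There were 2 each with z-scores, no filter, array weights, every probe on its own and the mean of probes (Cd247 and Tnfrsf17), among 446 to 1798 genes called in all. Without the 2 dimmest arrays, an alternative chosen after seeing the data, 0 were called. With arrays left out the number was 0 to 2, 0 without irradiated wild-type replicate 3. The interaction had 0 in every alternative run. Over all genes the calls ran from 9 to 24 in wild type (13 in the main analysis), 6 to 25 in labelled knockout (21), 26 to 87 averaged (53), 2 to 192 for genotype in sham (9), 4 to 3369 after irradiation (205) and 0 to 0 for the interaction. Median scaling shifted the median of all genes by -0.20 in the genotype contrast after irradiation, -0.17 in the interaction and 0.10 in irradiated wild type. With normexp correction Cd79b was called after irradiation at 0.40, against -0.18, uncalled, in the main analysis. The replicate numbers do not pair the arrays: 11 of 24 same-numbered pairs had an r above 0.1 (-0.60 to 0.53), 5 of 16 arrays were most like their own number, and the replicate block left 3 members called in the averaged contrast. Causes of these changes were not tested. Members dimmer than background on some arrays (Cd3d, Tnfrsf17) are limited by signal, and Cd79a and Cd8a could not be read.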

Other observations

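The arrays responded to irradiation in other genes of the same animals. Of 14 listed p53 target genes, 13 were above 0 in the averaged irradiation contrast and limma called 7 higher, with a median of 0.69 beside 0.00 for all genes. Eda2r, a receptor of the TNF receptor family, gave 3.14 ± 0.17 (limma, adjusted p = 3.26e-07). Eda2r was well above background on only 8 arrays, so its difference rests partly on readings not well above background. Gdf15, a secreted stress factor, gave 1.90 ± 0.12 (limma, adjusted p = 1.04e-06) and Cdkn1a, the cell cycle inhibitor p21, 1.32 ± 0.13 (adjusted p = 0.000166). Aen, a nuclease gene, gave 0.72 ± 0.10 (adjusted p = 0.00399). The other called genes were Trp53inp1 at 1.03 ± 0.06 (limma, adjusted p = 1.01e-06), Ephx1 at 1.30 ± 0.09 (adjusted p = 2.49e-06) and Tnfrsf10b at 1.13 ± 0.09 (adjusted p = 1.385e-05).

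Among lymphocyte genes, Gata3, a factor of helper T cells, had the widest gap between the genotypes' irradiation differences, at -1.17 in wild type and 0.995 in labelled knockout. It was chosen after its values were seen, was well above background on 6 of 16 arrays and was not called in the interaction.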
